A study of Mus musculus with 6 samples.

Results

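The mitochondrial carriers of the SLC25 family were followed in whole hearts of mice aged 8 weeks, 3 of Ppif-/- mice and 3 of WT mice, with 1 Affymetrix Gene 1.0 ST array for each heart. The members were the genes whose single annotated symbol starts with Slc25a, without the phosphate carrier Slc25a3, the adenine nucleotide translocases Slc25a4, Slc25a5 and Slc25a31, and the carnitine carrier Slc25a20. These were 41 genes of the 19938 genes read by a probe set with 1 symbol, and where a gene had several such probe sets the one brightest on average over the 6 arrays stood for it. Ppif-/- mice lack Ppif, the gene of cyclophilin D, in all tissues, and were backcrossed to C57BL/6 from Sv129. WT mice were C57BL/6. The labels name no other allele and no treatment in either genotype. They do not say how many backcrosses were made or whether the WT mice were littermates. Loss of Ppif and any remaining Sv129 sequence therefore cannot be told apart in any difference given here. The series was made to look for transcripts that differ ahead of heart dysfunction.

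SLC25 proteins are small transporters that almost all sit in the inner mitochondrial membrane, where they exchange metabolites, nucleotides, cofactors, protons or iron between the cytosol and the matrix. They are built from repeats of a common unit and are brought to the membrane by a dedicated import route. In heart muscle they link the citric acid cycle, the malate-aspartate shuttle, haem and iron-sulphur cluster synthesis and the matrix nucleotide pool to the rest of the cell. Cyclophilin D lies on the matrix side of the same membrane, where it promotes opening of the permeability transition pore.

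Levels are in log2 units, and each difference is Ppif-/- minus WT with the standard error (SE, after ±) of a limma fit over 23410 probe sets with a symbol. A gene was called at a Benjamini-Hochberg adjusted p under 0.05 over all of those. Brightness differs between probe sets for reasons other than transcript number, so levels of different genes were not set against each other. The knockout was read in the Ppif probe set, at 6.00, 6.25 and 6.44 in Ppif-/- hearts and 11.44, 11.28 and 11.49 in WT hearts. Heart identity was checked on cardiomyocyte markers, whose mean over 7 genes was 13.43 to 13.44 in Ppif-/- and 13.45 to 13.49 in WT hearts. That mean was slightly lower in each Ppif-/- heart than in each WT heart. Of the 7 markers 0 were called, 5 lay below 0 and 2 above, with Ryr2 lowest at -0.19 and its groups apart. The labels number the hearts as separate samples, and the p-values set each difference against the spread between those hearts. For both SE and p, limma draws the variance of each probe set toward a value common to all tested probe sets. Other facts of the arrays bear on single results and stand beside them.

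No SLC25 member was called: 0 of 41 passed in limma, where 1.09% of all tested probe sets did, 0.624% higher and 0.461% lower. The smallest adjusted p was 0.0718, of the coenzyme A carrier Slc25a42. An unadjusted limma p under 0.05 was found for 8 of 41 members (19.5%), 4 higher and 4 lower, beside 12.9% of all tested probe sets, 6.1% higher and 6.81% lower. The groups did not overlap for 12 members (29.3%), beside 19.8% of all tested probe sets. Of these 12, 4 lay higher in Ppif-/- hearts (9.76% of members, 9.21% of all tested) and 8 lay lower (19.5% of members, 10.6% of all tested). The median difference over the 41 members was -0.05, beside -0.00 over all tested probe sets, and 25 members were below 0 and 16 above.

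The size of a difference that could have been missed is given by the 95% confidence intervals, which are not adjusted for the number of genes. All 41 intervals lay inside a 2-fold change in either direction (log2 of 1). For 35 members the interval lay within 0.5 of 0 on the log2 scale. The 6 with wider or more distant intervals were Slc25a42, Slc25a33, Slc25a37, Slc25a25, Slc25a34 and Slc25a53. Across all members the intervals ran from -0.57 (Slc25a42) to 0.87 (Slc25a25). RMA compresses differences at low signal, and 8 of the 41 members had a mean below the median of the array table, so intervals of those dim genes may understate true folds.

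**Figure D1:**
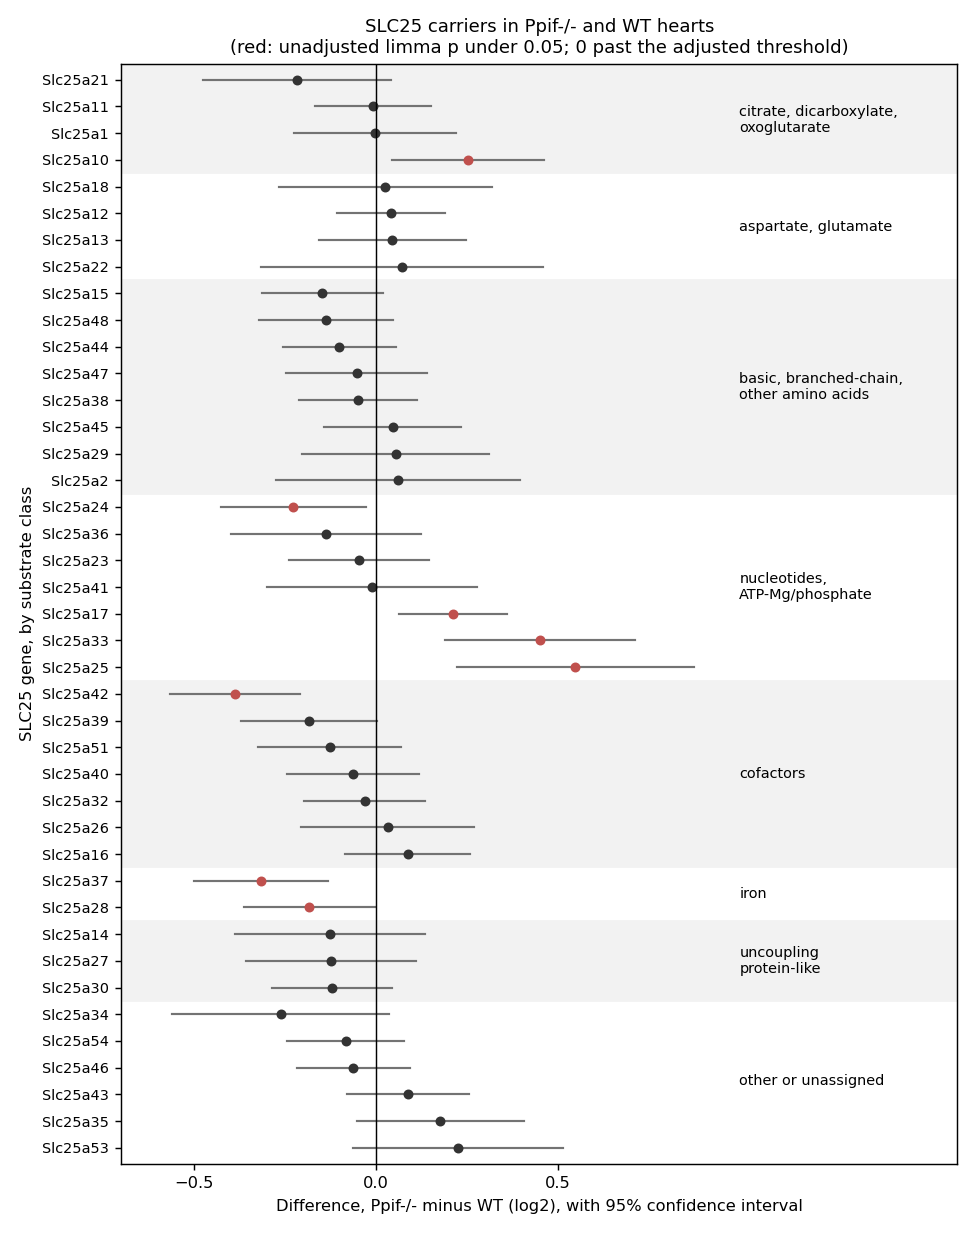
Differences of all 41 SLC25 members, Ppif-/- minus WT in log2 units, grouped by substrate class, with points for the fitted difference (n = 3 hearts per genotype) and lines for the 95% confidence interval. Red points mark the 8 members with an unadjusted limma p under 0.05, which lie on both sides of 0, and 0 members passed the adjusted threshold.

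Promoter sequences are shown for the 3 members with the smallest p-values that have a promoter window in the sequence table, since these are the genes at which the genotypes lay farthest apart relative to their error. Each run holds the 250 bases before the RefSeq start on the GRCm38.p6 build, 5′ to 3′ on the gene's strand. Capitals mark matches, on either strand, to motifs named for clock factors, for factors of the cAMP and immediate early responses, or for the mitochondrial gene regulator ERR. The windows lie at chr8:70212282-70212531, minus strand, for Slc25a42, at chr4:149774268-149774517, minus strand, for Slc25a33 and at chr2:32424067-32424316, minus strand, for Slc25a25.
Slc25a42: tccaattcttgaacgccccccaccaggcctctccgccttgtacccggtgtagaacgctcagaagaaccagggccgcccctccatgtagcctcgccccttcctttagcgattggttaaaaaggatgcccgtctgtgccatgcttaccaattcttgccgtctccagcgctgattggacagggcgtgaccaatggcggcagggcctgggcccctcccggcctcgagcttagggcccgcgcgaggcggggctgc
Slc25a33: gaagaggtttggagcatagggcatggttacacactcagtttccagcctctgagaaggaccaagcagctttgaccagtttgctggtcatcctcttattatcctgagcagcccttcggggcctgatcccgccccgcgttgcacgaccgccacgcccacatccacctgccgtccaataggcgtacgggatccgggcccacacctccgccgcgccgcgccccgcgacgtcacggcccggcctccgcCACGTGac
Slc25a25: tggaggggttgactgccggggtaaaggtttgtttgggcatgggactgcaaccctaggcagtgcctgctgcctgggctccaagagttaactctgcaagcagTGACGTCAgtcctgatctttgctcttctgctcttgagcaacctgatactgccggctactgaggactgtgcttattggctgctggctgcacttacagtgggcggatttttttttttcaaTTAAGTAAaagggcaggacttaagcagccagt

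Slc25a33 held an E-box (CACGTG) that ends 2 bases before the start. Slc25a25 has 3 start windows, and the one printed was chosen because it held matches, a cAMP response element (TGACGTCA) 142 bases and a D-box (TTANGTAA) 24 bases before the start, while its other windows held none. Slc25a42 held 0 matches. In the 41 windows of the 31 members with a window, the E-box occurred in 7 (17.1%, against 6.02% of 32851 windows of all genes), the cAMP response element in 2 (4.88% against 1.55%) and the D-box in 1 (2.44% against 2.06%). The EGR motif (GCGNGGGCG) occurred in 6 member windows (14.6% against 4.70%). The ERR motif (TCAAGGTCA) occurred in 0 member windows, against 0.387% of all windows. Overlapping windows of a gene share sequence, windows of all genes include noncoding genes, and a match is a description of the letters only. Which start the heart uses was not measured here.

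Among the carriers of coenzyme A and other cofactors, Slc25a42 lay farthest from its WT level. Slc25a42, which brings coenzyme A into the matrix, was at 8.00, 8.04 and 8.05 in Ppif-/- hearts and at 8.45, 8.29 and 8.51 in WT hearts. The Ppif-/- hearts lay close together and each was below each WT heart. The difference of -0.39 ± 0.08 (SE) corresponds to a 1.31-fold lower level and did not pass (limma adjusted p = 0.0718). It passed in 3 alternative fits: among brighter probe sets alone (adjusted p = 0.0368), under array weights (0.028) and with a variance that follows the mean (0.0398). It did not pass when any 1 heart was left out, with differences of -0.45 to -0.34 (limma adjusted p = 0.0533 to 0.212). Slc25a16, a further carrier linked to coenzyme A, was at 0.09 ± 0.07. In the cytosolic and matrix synthesis of coenzyme A, the pantothenate kinase Pank1 was at -0.08 and the synthase Coasy at -0.24, and neither passed (limma adjusted p = 0.68 and 0.421), with Coasy at -0.14 without WT heart 2.

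Of the other cofactor carriers, the glutathione carrier Slc25a39 was at 10.58, 10.62 and 10.58 in Ppif-/- hearts and at 10.72, 10.93 and 10.69 in WT hearts. Each Ppif-/- heart was below each WT heart, and WT heart 2 was the highest. The difference was -0.18 ± 0.08 (limma adjusted p = 0.398), and -0.11 without WT heart 2. Its paralogue Slc25a40 was at -0.06 ± 0.08, and a second probe set of Slc25a40 was at -0.12. The NAD carrier Slc25a51 was at -0.13 ± 0.08, the S-adenosylmethionine carrier Slc25a26 at 0.03 ± 0.10 and the carrier Slc25a32, tied to folate and FAD, at -0.03 ± 0.07. The 7 measured cofactor carriers had a median difference of -0.06, with 0 called and 2 whose groups did not overlap, both lower, beside 10.6% of all tested probe sets.

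Mitoferrins carry iron into the matrix for haem and iron-sulphur cluster synthesis. Both were lower in each Ppif-/- heart than in each WT heart, as were 10.6% of all tested probe sets, and neither passed the test. Slc25a37, mitoferrin 1, was at 6.72, 6.78 and 6.88 in Ppif-/- hearts and at 7.02, 7.22 and 7.10 in WT hearts. The difference was -0.32 ± 0.08, a 1.25-fold lower level (limma adjusted p = 0.142). Slc25a28, mitoferrin 2, was at 7.98, 8.04 and 8.12 in Ppif-/- hearts and at 8.13, 8.32 and 8.23 in WT hearts. The groups were apart only by the gap between the highest Ppif-/- heart and WT heart 1, and the difference of -0.18 ± 0.08 did not pass (adjusted p = 0.379).

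Slc25a37 is best known from red cell precursors, where Slc25a38 brings in glycine for haem synthesis. Slc25a38 was at 9.29, 9.13 and 9.19 in Ppif-/- hearts and at 9.21, 9.25 and 9.30 in WT hearts, so the groups overlapped (-0.05 ± 0.07). The mean over the 3 measured erythroid markers, Alas2, Slc4a1 and Ermap, was 6.44 to 6.47 in Ppif-/- and 6.27 to 6.45 in WT hearts. Among them, the erythroid aminolevulinate synthase Alas2, of the haem route, was at 0.38 ± 0.14 (limma adjusted p = 0.299) with groups that overlapped. Slc4a1 was at 0.01 and Ermap at -0.03. The share of blood RNA in the mitoferrin values was not tested. In whole hearts, fewer cells of a type and less RNA per cell cannot be told apart.

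Other steps of the iron and haem route did not pass either. The ubiquitous aminolevulinate synthase Alas1 was at 0.30 ± 0.29, with WT heart 2 at 10.45 and all other hearts at 11.39 to 11.69. It was at -0.09 without that heart. Ferrochelatase (Fech) was at 0.07, the iron-sulphur scaffold Iscu at -0.11, and the ABC transporters Abcb10 and Abcb6 at -0.02 and -0.04.

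Carriers of nucleotides and of ATP-Mg with phosphate held members on both sides of 0. Slc25a25, a calcium-regulated ATP-Mg/phosphate carrier also called SCaMC-2, was at 7.42, 7.06 and 7.20 in Ppif-/- hearts and at 6.43, 6.68 and 6.92 in WT hearts. Each Ppif-/- heart lay above each WT heart, but both groups were spread widely. Its difference of 0.55 ± 0.14 was the highest of the members, a 1.46-fold higher level, and did not pass (limma adjusted p = 0.146). Leaving out each heart in turn gave 0.43 to 0.67 for Slc25a25 (adjusted p = 0.123 to 0.313).

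The related carriers lay elsewhere. Slc25a24 (SCaMC-1) was at 7.17, 7.29 and 7.35 in Ppif-/- hearts and at 7.44, 7.63 and 7.42 in WT hearts. All Ppif-/- hearts were below all WT hearts, by -0.23 ± 0.09 (limma adjusted p = 0.318). Slc25a23 (SCaMC-3) was at -0.05 ± 0.08 and Slc25a41, the short form without the calcium-binding domain, at -0.01 ± 0.12. Whether Slc25a25 and Slc25a24 responded differently to the genotype was not tested.

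Slc25a33, which carries pyrimidine nucleotides and is also called PNC1, was at 7.68, 7.25 and 7.38 in Ppif-/- hearts and at 7.07, 6.92 and 6.97 in WT hearts. All Ppif-/- hearts were above all WT hearts, and Ppif-/- heart 1 was the highest. The difference was 0.45 ± 0.11, a 1.37-fold higher level (limma adjusted p = 0.139), and 0.33 without Ppif-/- heart 1. Its paralogue Slc25a36 (PNC2) was at 10.01, 10.02 and 9.75 in Ppif-/- hearts and at 9.95, 10.27 and 9.97 in WT hearts. Those groups overlapped (-0.14 ± 0.11), and a second probe set of Slc25a36 was at -0.00 ± 0.10.

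Slc25a17, the peroxisomal member of the family, which carries adenine nucleotides and cofactors, had the tightest WT group of the members with an unadjusted p under 0.05. It was at 8.49, 8.40 and 8.50 in Ppif-/- hearts and at 8.26, 8.24 and 8.25 in WT hearts. The groups did not overlap, and the difference of 0.21 ± 0.06 (1.16-fold higher) did not pass (limma adjusted p = 0.214). In all, 4 of the 7 nucleotide carriers had groups that did not overlap, 3 higher and 1 lower, beside 9.21% of all tested probe sets that lay apart higher and 10.6% lower.

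**Figure D2:**
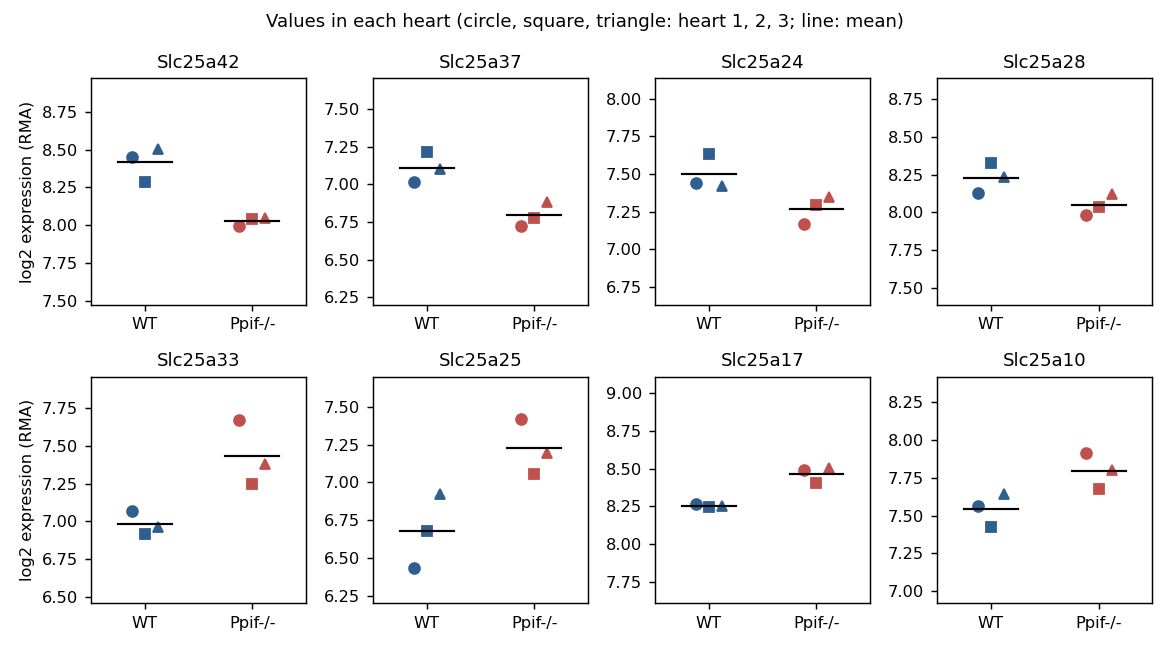
Log2 expression in each of the 3 WT hearts (blue) and 3 Ppif-/- hearts (red) for the 8 members with an unadjusted limma p under 0.05, all panels spanning the same log2 range, with lines for the group means. The groups do not overlap in any of these 8 panels, with Ppif-/- lower in the upper row and higher in the lower row. The panels were chosen by p in these same values, so the gaps are no separate support. Of the 8 members, 0 passed the adjusted threshold.

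Carriers of dicarboxylates and citrate feed the citric acid cycle and the malate-aspartate shuttle. Slc25a10, the dicarboxylate carrier, was at 7.92, 7.67 and 7.80 in Ppif-/- hearts and at 7.56, 7.43 and 7.64 in WT hearts. The lowest Ppif-/- heart was just above the highest WT heart. The difference was 0.25 ± 0.09, a 1.19-fold higher level (limma adjusted p = 0.286). Slc25a11, the oxoglutarate-malate carrier, was at 11.77, 11.78 and 11.67 in Ppif-/- hearts and at 11.77, 11.69 and 11.78 in WT hearts. Its groups covered the same range (-0.01 ± 0.07, 95% interval -0.17 to 0.15). The citrate carrier Slc25a1 was at -0.00 ± 0.10 and the oxodicarboxylate carrier Slc25a21, a dim probe set, at -0.22 ± 0.11.

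The aspartate-glutamate exchangers complete the shuttle. Slc25a12 (aralar) was at 12.30, 12.38 and 12.41 in Ppif-/- hearts and at 12.34, 12.31 and 12.31 in WT hearts. The groups overlapped, and the difference of 0.04 ± 0.06 had a 95% interval of -0.11 to 0.19. Slc25a13 (citrin) was at 0.05 ± 0.09, with an interval of -0.16 to 0.25. The glutamate carriers Slc25a22 and Slc25a18 were at 0.07 ± 0.17 and 0.03 ± 0.13. All 4 members of this class were above 0, by at most 0.07, and none had groups apart. Without WT heart 2, Slc25a22 was at -0.11 and Slc25a13 at -0.02, while Slc25a12 and Slc25a18 were at 0.04 and 0.06.

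The enzymes of the malate-aspartate and glycerol phosphate shuttles lay in a like narrow range. Of the 7 measured genes limma called 0, beside 1.09% of all tested probe sets. At an unadjusted p under 0.05 there were 0 as well, beside 12.9%, with differences from -0.03 to 0.09. The 2 with the smallest p were the glycerol phosphate dehydrogenase Gpd1l at 0.09 ± 0.09 and the mitochondrial malate dehydrogenase Mdh2 at 0.05 ± 0.06. The aminotransferases Got1 and Got2 were at -0.03 ± 0.06 and 0.03 ± 0.06.

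Among the 8 carriers grouped with amino acids, 0 were called and the differences ran from -0.15 to 0.06. Slc25a44, which carries branched-chain amino acids, was at 8.45, 8.47 and 8.44 in Ppif-/- hearts and at 8.48, 8.62 and 8.56 in WT hearts. The groups did not overlap, yet the gap was small and the difference was -0.10 ± 0.07 (95% interval -0.26 to 0.06, limma adjusted p = 0.587). The aminotransferase Bcat2, which uses the carried substrates, was higher by 1.05 ± 0.07 in the same Ppif-/- hearts (limma adjusted p = 0.000425). Downstream of it, the ketoacid dehydrogenase subunits Dbt and Bckdhb were at -0.38 ± 0.07 and -0.27 ± 0.07 (adjusted p = 0.0658 and 0.143), and Bckdha was at 0.02.

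The ornithine carrier Slc25a15 was at 7.89, 7.92 and 7.85 in Ppif-/- hearts and at 8.13, 7.96 and 8.01 in WT hearts. The groups did not overlap, and the difference of -0.15 ± 0.07 did not pass (limma adjusted p = 0.438). Ornithine aminotransferase (Oat), its matrix partner, was at -0.14 ± 0.06 and had groups that did not overlap either (adjusted p = 0.411). The paralogue Slc25a2, a dim probe set, was at 0.06 ± 0.15 and the basic amino acid carrier Slc25a29 at 0.05 ± 0.11. Slc25a45, Slc25a47 and Slc25a48, for which no role is given here, were at 0.05, -0.05 and -0.14.

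The 3 carriers named for their likeness to uncoupling proteins lay together at -0.13 to -0.12, with 0 called. Slc25a30 (KMCP1) was at 7.76, 7.67 and 7.68 in Ppif-/- hearts and at 7.74, 7.89 and 7.84 in WT hearts. The groups overlapped by Ppif-/- heart 1 and WT heart 1, and the difference was -0.12 ± 0.07. Slc25a14 (UCP5), a dim probe set, was at -0.13 ± 0.11 and Slc25a27 (UCP4) at -0.12 ± 0.10. Without WT heart 2, Slc25a30 was at -0.09, Slc25a14 at -0.09 and Slc25a27 at -0.03. The uncoupling protein Ucp3, which lies outside the member rule, was at 8.98, 8.82 and 8.93 in Ppif-/- hearts and at 8.69, 7.84 and 8.70 in WT hearts. WT heart 2 lay far below the other hearts, and the difference of 0.50 ± 0.22 did not pass (limma adjusted p = 0.388) and was 0.21 without that heart. Ucp1 of brown fat was at 4.33 to 4.39 in Ppif-/- and 4.05 to 4.51 in WT hearts, a dim probe set in both.

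Of the 6 members with another or no assigned substrate, 0 were called. Slc25a46, which sits in the outer membrane and takes part in mitochondrial fission and cristae upkeep, was at 9.58, 9.63 and 9.56 in Ppif-/- hearts and at 9.70, 9.58 and 9.68 in WT hearts. The groups overlapped, and the difference was -0.06 ± 0.07. The orphan Slc25a34 was at 9.22, 9.30 and 9.29 in Ppif-/- hearts and at 9.35, 9.84 and 9.40 in WT hearts. WT heart 2 stood apart, and the difference of -0.26 ± 0.13 became -0.11 without it. Slc25a35 and Slc25a43 were at 0.18 ± 0.10 and 0.09 ± 0.07, and the dim Slc25a53 and Slc25a54 at 0.23 ± 0.12 and -0.08 ± 0.07.

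**Figure D3:**
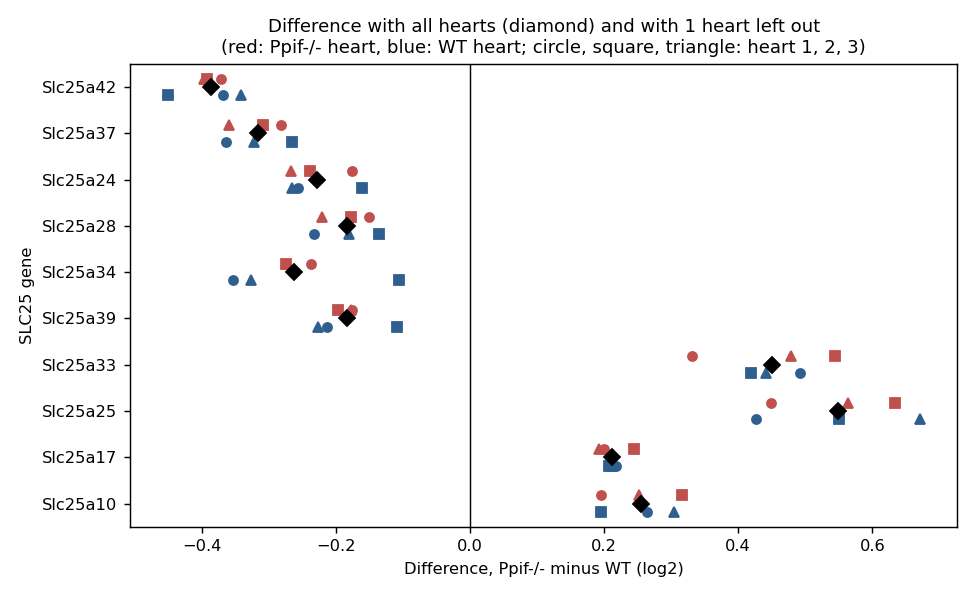
Difference of 10 members, Ppif-/- minus WT in log2 units, with all 6 hearts (black diamonds) and with each Ppif-/- heart (red) or WT heart (blue) left out. The groups of these members do not overlap, so leaving out a heart cannot change the sign of a difference, and only its size is informative here. Slc25a34 and Slc25a39 come closest to 0 when WT heart 2 is left out, at -0.11 each.

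WT heart 2 had more extreme values within its genotype than the other WT hearts over the whole array. It lay more than 0.5 log2 units outside both other WT hearts for 401 tested probe sets, against 51 for WT heart 1 and 62 for WT heart 3. In the Ppif-/- group that count was 282 for heart 1, 73 for heart 2 and 124 for heart 3. By that measure 0 members stood apart in any heart. The glutathione synthesis subunit Gclm was at 10.54 in WT heart 2 and at 8.64 to 8.90 in all other hearts. Among the members, WT heart 2 was the highest WT heart for 15 and the lowest for 16 of 41. Without WT heart 2, the median difference of the members was -0.05 and 0 members passed in limma.

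Some members lie next to each other in the genome. In the gene table, Slc25a54 and Slc25a24 are neighbours on chromosome 3 with no other protein-coding gene between them, as are Slc25a29 and Slc25a47 on chromosome 12 and Slc25a41 and Slc25a23 on chromosome 17. The pair on chromosome 3 was at -0.08 and -0.23, that on chromosome 12 at 0.05 and -0.05, and that on chromosome 17 at -0.01 and -0.05. Slc25a43 on the X chromosome neighbours the translocase gene Slc25a5, and these were at 0.09 and -0.07. No neighbouring pair held a called gene. Neighbours are related in sequence in part, and how far their probes read each other's transcripts was not tested.

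The family genes outside the member rule included the 1 called carrier. Slc25a31, an adenine nucleotide translocase best known from testis, was at 6.26, 5.49 and 5.86 in Ppif-/- hearts and at 4.59, 4.54 and 4.46 in WT hearts. It was higher by 1.34 ± 0.17 in Ppif-/- hearts (limma adjusted p = 0.0122), and its WT level was dim. The call of Slc25a31 was lost in the table of all probe sets (adjusted p = 0.0642) and when Ppif-/- heart 3 (0.0684), WT heart 2 (0.0538) or WT heart 3 (0.055) was dropped, with a difference of at least 1.31 in each. Its probe set was too dim to enter the fit on brighter probe sets. The other 8 of the 9 measured genes of that list, the heart's main translocase Slc25a4, Slc25a3, Slc25a5, Slc25a20, Ucp1, Ucp3, Mtch1 and Mtch2, did not pass, and apart from Ucp3 they differed by -0.07 to 0.06. Slc25a4 was at 13.65, 13.65 and 13.64 in Ppif-/- hearts and at 13.62, 13.57 and 13.63 in WT hearts.

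The list of other mitochondrial membrane transporters gave 0 calls among 10 measured genes, beside 1.09% of all tested probe sets. The sideroflexins, which include serine carriers, held the 2 with the smallest p. Sfxn3 was at 7.92, 7.90 and 7.96 in Ppif-/- hearts and at 8.22, 8.18 and 8.30 in WT hearts (-0.31 ± 0.07, limma adjusted p = 0.0897). Sfxn4 was at 7.57, 7.49 and 7.22 in Ppif-/- hearts and at 6.98, 7.04 and 6.71 in WT hearts (0.52 ± 0.12, adjusted p = 0.114). The groups did not overlap for either gene, and the 2 genes lay on opposite sides of 0. These were the only 2 of the 10 with groups apart (20%), beside 19.8% of all tested probe sets. The pyruvate carrier subunit Mpc1 was at 0.08 ± 0.07.

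The import route of the carriers runs through the outer membrane receptor Tomm70a, the small chaperones of the intermembrane space and the TIM22 translocase. Of the 15 measured genes limma called 0, beside 1.09% of all tested probe sets. At an unadjusted p under 0.05 there was 1, beside 12.9%. The groups did not overlap for 6, 3 higher and 3 lower (all tested probe sets 9.21% and 10.6%), and the median was 0.07. The 2 with the smallest p were the receptor Tomm22 at 0.21 ± 0.08 (adjusted p = 0.322) and Tomm70a at -0.14 ± 0.08 (adjusted p = 0.481). The translocase pore Timm22 was at 0.16 ± 0.13 (-0.01 without WT heart 2), its partner Agk at 0.19 ± 0.11 (0.08 without that heart) and the chaperones Timm9 and Timm10 at -0.06 and -0.11. Of 24 measured enzymes that use carried substrates, 1 was called, Bcat2, beside 1.09% of all tested probe sets.

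**Figure D4:**
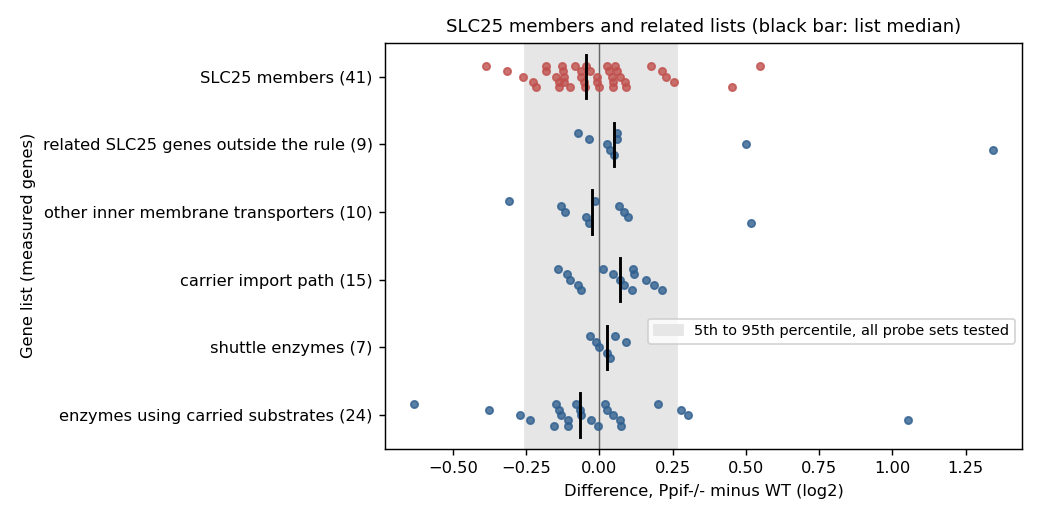
Differences in log2 units, Ppif-/- minus WT, of the 41 SLC25 members (red) and of 5 related lists (blue), with black bars for list medians and a grey band from the 5th to the 95th percentile of all tested probe sets (-0.25 to 0.26). List medians lie between -0.07 and 0.07, and the points farthest to the right are Slc25a31 at 1.34 and Bcat2 at 1.05.

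Markers of other cell types moved with genotype in part. Smooth muscle markers had a mean over 4 genes of 8.48 to 8.64 in Ppif-/- and 8.88 to 9.11 in WT hearts, with Tagln called lower (limma adjusted p = 0.0332), and macrophage markers a mean over 4 genes of 8.20 to 8.39 and 8.02 to 8.09, with Cd68 called higher (0.0394) and Csf1r at -0.10 with groups apart in the lower direction. Fibroblast markers (5 genes) were at 10.03 to 10.19 and 9.92 to 10.21, with Pdgfra called lower (-0.44, limma adjusted p = 0.0246) but Col3a1 at 0.38 with groups apart in the higher direction (0.10 without WT heart 2) and Col1a1 at 0.21. Endothelial markers (4 genes) were at 10.39 to 10.55 and 10.44 to 10.54. Adipocyte markers (5 genes) were at 6.80 to 6.84 and 6.74 to 6.84, with Adipoq at 3.97 to 4.46 over all hearts, and fast skeletal muscle markers (5 genes) at 5.42 to 5.45 and 5.66 to 5.75, where Myl1 was called lower (-1.44, limma adjusted p = 0.000555). Without Myl1 the other 4 fast muscle markers had means of 5.25 to 5.35 in Ppif-/- and 5.24 to 5.33 in WT hearts, so the lower list mean came from that 1 gene. The calls of Tagln, Cd68 and Pdgfra were lost whichever heart was dropped (adjusted p of at least 0.0537, 0.0551 and 0.0693), and that of Myl1 was not. Array values have no true zero, so no marker is at 0. The part of cell type shares in the members' differences was not tested.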

How the data were processed

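RNA of 6 hearts was hybridised to 1 array each. The authors deposited log2 expression values, made with RMA per the submitters' processing notes, with software and filters unstated in the labels. Values were used as deposited, and 3 arrays per genotype limit the precision. Genes were named from the platform annotation, updated by Entrez identifier to the GRCm38.p6 gene table, which renamed 0 members. The 23410 probe sets with a symbol were compared in limma 3.58.1 (R 4.3.3; 2-sided, no covariates). For 3 against 3 hearts no exact permutation p can be under 0.1, so none is given. On 23410 simulated probe sets of this comparison, 200 of them changed, limma recovered 76.1% of changes of log2 size 0.5 and 100% of size 1, with 7.07% false calls.

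By rule every member could be named, with values in every heart for members with an unadjusted p under 0.05 and an absolute difference of at least 0.2, and for the brightest probe set of each substrate class, and the 2 smallest p or the calls of each related list were named. Slc25a4, Slc25a15, Slc25a34, Slc25a44, Ucp1, Ucp3, Gclm, Alas1 and the other related genes were added after their values were seen. Members, lists and motifs were chosen with earlier results of these data known. Listed genes without a single-symbol probe set, such as Ucp2 and Mpc2, were not analysed here. Promoter windows came from RefSeq, and 31 of 41 members matched; only the 250 bases before the start were searched.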

Additional observations from a re-analysis of the deposited data

How the results depend on the processing

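The number of SLC25 members past the threshold was 0 in limma (8 at an unadjusted p under 0.05). It was 1, Slc25a42, on brighter probe sets alone, with a variance trend or under array weights, and 0 without any 1 heart. The number with groups that do not overlap was 12, and 14 to 19 with 1 heart left out, 19 being without Ppif-/- heart 1, where fewer values must lie apart. Calls among the related lists numbered 2, Slc25a31 and Bcat2, against 3 on brighter probe sets (Bcat2, Sfxn3 and Dbt, with Slc25a31 too dim to enter), 1 on all probe sets, 4 with a variance trend (adding Dbt and Bckdhb), 4 under array weights (adding Sfxn3 and Dbt) and 1 to 2 with 1 heart left out, the lost call being Slc25a31. Calls over all tested probe sets numbered 254, against 403 on brighter probe sets, 131 on all probe sets, 453 with a variance trend, 386 under array weights and 131 to 171 with 1 heart left out. With the replicate number as a block they numbered 160, of which 0 were members. Deviations from the genotype mean correlated at -0.08, -0.06 and 0.12 between same-numbered hearts. Between hearts of different numbers they correlated at -0.13 to 0.16. Whether same-numbered hearts share a batch cannot be told from these values and was not tested. Fewer hearts or another number of probe sets are part of some of these settings, and otherwise the cause was not tested. The median difference over members was between -0.07 and -0.03 in all settings run. Of 648 single member differences under the alternatives, 25 uncalled values of 12 members had the other sign, and 3, all of Slc25a42, passed. Differences of the 8 members below the table's median signal may be compressed by RMA. The largest SE was that of a brighter member, Slc25a22 (0.17).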
